A study of Arabidopsis thaliana with 8 samples.

Results

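Nuclear factor Y (NF-Y) subunit genes were followed in the lists of N6-methyladenosine (m6A) peaks of Arabidopsis thaliana seedlings aged 14 days. The members were all rows of both lists that carried the gene identifier of NF-YA1 (AT5G12840), NF-YA2 (AT3G05690), NF-YA10 (AT5G06510), NF-YB2 (AT5G47640), NF-YB3 (AT4G14540), NF-YC1 (AT3G48590), NF-YC2 (AT1G56170), NF-YC3 (AT1G54830), NF-YC4 (AT5G63470) or NF-YC9 (AT1G08970). Of these 10 genes, 8 had a row, with 11 of the 20696 peaks in the mutant list and 10 of the 20521 peaks in the wild-type list. NF-YA2 and NF-YA10 had none in either list. The mutant was atalkbh10b-1, labelled as homozygous, which carries a lesion in the m6A demethylase gene ALKBH10B in the Columbia-0 ecotype, and the wild type was Columbia-0. Each genotype had 2 pull-down and 2 input libraries from whole seedlings. The mutant is represented by a single allele, and a whole seedling mixes many tissues.

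NF-Y is a transcription factor built from an NF-YA, an NF-YB and an NF-YC subunit. NF-YB and NF-YC pair through their histone-fold domains, and NF-YA then joins them and recognizes the CCAAT sequence of promoters. In Arabidopsis each subunit is encoded by a gene family. NF-YB2 and NF-YB3, with NF-YC3, NF-YC4 and NF-YC9, are known to act with CONSTANS (CO) on the flowering gene FT under long days, and several NF-YA transcripts, among them those of NF-YA2 and NF-YA10, are cut under the direction of the microRNA miR169. m6A is a methyl mark on adenosine within messenger RNA that writer complexes add, demethylases such as ALKBH10B remove, and proteins with a YTH domain bind.

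The deposited value of a peak is a log2 enrichment of pull-down over input, 1 per replicate, so 0 means equal signal in both. Replicates 1 and 2 were used. The headers also name a replicate 3, which matches no sample in the labels and was not used, so each value below rests on 2 of the 3 replicates the headers name. Depth and transcript amounts are unknown from these lists, and a gene without a peak may be unmethylated, scarce or below the authors' threshold; for the same reason the seedling label could not be checked against tissue markers. The genes were chosen by family with their listing and log2 enrichment in both genotypes already known, the large difference at NF-YC9 included. The comparisons of genotypes among them are therefore descriptions without a test, set beside the same measure over all peaks. Errors are SDs over the 2 libraries of a genotype, and an exact two-sided permutation test of 2 against 2 libraries cannot give a p below 0.333.

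Most peaks of the NF-Y genes overlapped between the lists. Of the 11 mutant peaks 9 overlapped a wild-type peak of the same gene, where 69.3% of all mutant peaks did, and of the 10 wild-type peaks 9 overlapped a mutant peak, where 69.4% of all did. Where both replicates of a peak had to reach a log2 enrichment of 1, a partner was left for 1 of 4 mutant peaks and 1 of 6 wild-type peaks, against 61.9% of all such mutant peaks and 58.9% of all such wild-type peaks. The 21 peaks of both lists held 9 pairs in 6 genes. Borders differed by a median of 13 bases at the start and 12 bases at the end of a pair, against 25 and 20 bases over all 13875 pairs, and the widest shift was the start of the NF-YB3 peak, 70 bases further along in the mutant. The median width was 155 bases in the mutant and 169.5 bases in wild type, against 157 bases over all peaks in each list. Peaks without a partner were those of NF-YC2 and the first NF-YC3 peak in the mutant, and that of NF-YB2 in wild type.

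**Figure D1:**
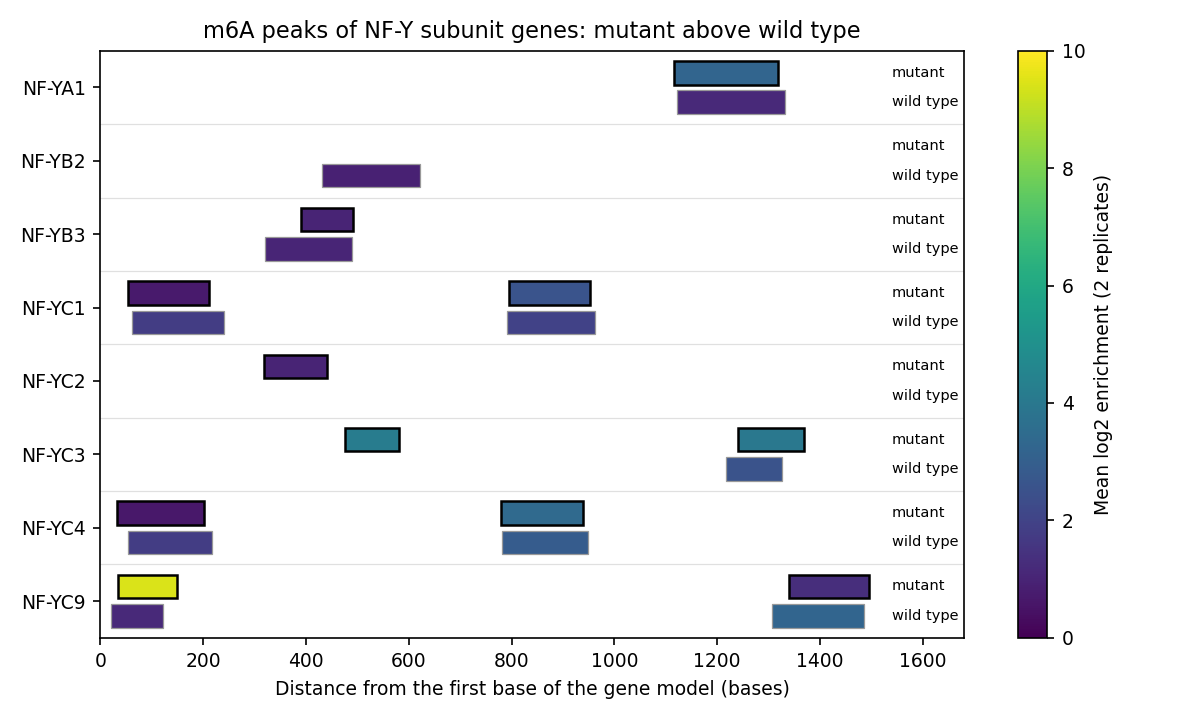
Each bar is a listed m6A peak, placed by its distance in bases from the first base of the gene model (x axis), with the mutant above wild type for each gene; the colour gives the mean log2 enrichment of 2 replicates. NF-YC1, NF-YC4 and NF-YC9 each have a peak near the start and another further along in both genotypes, and the brightest bar is the first NF-YC9 peak of the mutant (9.42).

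NF-YC genes held most of the peaks and were the members with 2 peaks. NF-YC1, NF-YC4 and NF-YC9 had 2 in both lists, and NF-YC3 had 2 in the mutant and 1 in wild type. Genes with 2 peaks made up 27.5% of the mutant list and 27.1% of the wild-type list. In NF-YC1, NF-YC4 and NF-YC9 the first peak lay wholly within the first 250 bases of the model, a limit set after the positions were seen. Over all genes, 7.55% of mutant peaks and 8.27% of wild-type peaks did so, and 9.40% of mutant genes and 9.75% of wild-type genes had such a peak together with a later one. Within 500 bases lay 5 of the 11 mutant peaks and 4 of the 10 wild-type peaks, against 17.8% and 17.6% of all peaks. Gene length was not taken into account in these shares. NF-Y peaks ended no later than base 1494 in the mutant and 1485 in wild type. The upper quartiles of all peak ends were 1956 and 1980. Whether introns count in these positions is not given, so the peaks were not assigned to exons or untranslated regions.

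Among the NF-YA subunits, NF-YA1, known to act in pollen and embryo development, was the only one of the 3 members of its kind with a peak. The peak spanned bases 1116 to 1318 in the mutant and 1121 to 1330 in wild type. Its log2 enrichments were 4.34 and 2.13 in the mutant replicates 1 and 2, and 1.71 and 0.56 in the wild-type ones. The genotypes did not overlap, with the mutant higher, and the means were 3.24 ± 1.56 and 1.14 ± 0.81 (SD, n = 2 each). The difference of 2.10 on the log2 scale stood at the 87.9th percentile of all pairs, and it was 0.995 when mutant replicate 1 was left out and 3.21 when mutant replicate 2 was.

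The histone-fold subunits NF-YB2 and NF-YB3, close relatives that act in the photoperiod response, had weakly enriched peaks. NF-YB3 had log2 enrichments of 1.10 and 0.92 in the mutant at bases 391 to 490, and 1.41 and 0.62 in wild type at bases 321 to 488. The genotypes overlapped, and the means were 1.01 ± 0.13 in the mutant and 1.02 ± 0.56 in wild type. NF-YB2 had no peak in the mutant list, and in wild type its peak at bases 431 to 621 had 1.41 and 0.46. With a mean of 0.93 ± 0.67 that peak stood at the 10.4th percentile of wild-type peaks, and only 1 of its 2 values reached 1. NF-YB2 overlaps other genes in the reference annotation. The library kit named in the labels does not mark strand, so reads from the overlap cannot be told apart.

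NF-YC9, a subunit known to act redundantly with NF-YC3 and NF-YC4 in flowering, had the largest difference between genotypes of the 9 pairs. Its first peak, at bases 34 to 147 in the mutant and 21 to 120 in wild type, had log2 enrichments of 9.25 and 9.59 in the mutant and of 0.99 and 1.34 in wild type. Both mutant values lay far above both wild-type values. The unused column of replicate 3 in the mutant list does not hold a value this high at the peak, so the closeness of these 2 mutant values does not extend to every column of that list. The mutant mean of 9.42 ± 0.24 stood at the 99.6th percentile of all mutant peaks, and the wild-type mean of 1.16 ± 0.25 at the 16.2nd of all wild-type peaks. The difference of 8.26 was the 12th highest of all 13875 pairs. Among the 2638 pairs whose replicates lay within 1 of each other in both genotypes it was the 2nd highest. That filter used replicates 1 and 2 alone, and NF-YC9 entered with its values known, so both places are descriptions. Input reads were not examined, so how many reads support so high a ratio is unknown.

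The second NF-YC9 peak went the other way. At bases 1340 to 1494 in the mutant and 1307 to 1485 in wild type, it had 0.84 and 1.79 in the mutant and 3.52 and 2.94 in wild type. Both mutant values lay below both wild-type values, with means of 1.31 ± 0.67 in the mutant and 3.23 ± 0.41 in wild type, a difference of -1.92.

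NF-YC4, known to act redundantly with NF-YC3 and NF-YC9 in flowering, had its first peak at bases 32 to 200 in the mutant and 53 to 217 in wild type. The log2 enrichments there were 1.40 and -0.07 in the mutant, and 2.38 and 1.17 in wild type. The higher mutant value, 1.40, lay above the lower wild-type value, 1.17, so the genotypes overlapped. The means were 0.66 ± 1.04 in the mutant and 1.77 ± 0.86 in wild type. The second peak, at bases 779 to 938 in the mutant and 782 to 948 in wild type, had 4.30 and 2.57 in the mutant against 3.27 and 2.48 in wild type. It was the only pair of these genes in which all 4 values reached 1. Its means of 3.43 ± 1.23 in the mutant and 2.87 ± 0.56 in wild type differed by 0.56, less than the spread between mutant replicates.

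NF-YC1, a further subunit of the NF-YC kind, had a first peak at bases 54 to 210 in the mutant and 62 to 240 in wild type. It had -0.26 and 1.61 in the mutant, and 1.15 and 2.42 in wild type, so the genotypes overlapped, with means of 0.68 ± 1.33 and 1.78 ± 0.90. The second peak, at bases 794 to 952 in the mutant and 791 to 961 in wild type, had 4.32 and 0.84 in the mutant around the closely spaced wild-type values of 1.90 and 2.07. Mutant replicate 1 lay above and mutant replicate 2 below both wild-type values there. The mean difference of 0.60 became -1.14 without mutant replicate 1.

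NF-YC3 showed the widest spread between replicates. Its shared peak, at bases 1241 to 1367 in the mutant and 1217 to 1326 in wild type, had 7.44 and 0.54 in the mutant, and 2.03 and 3.11 in wild type. The mutant values enclosed the wild-type ones, and the difference of 1.41 became -2.04 without mutant replicate 1. A peak at bases 476 to 580, listed in the mutant alone, had 3.10 and 5.21, a mean of 4.15 ± 1.49 at the 77.5th percentile of mutant peaks. NF-YC2 was listed in the mutant alone, at bases 319 to 440, with 1.66 and 0.36, a mean of 1.01 ± 0.92 at the 13.4th percentile. NF-YC2, NF-YC3 and NF-YC4 overlap other genes in the reference annotation, as NF-YB2 does, and the remaining 6 members overlap none.

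**Figure D2:**
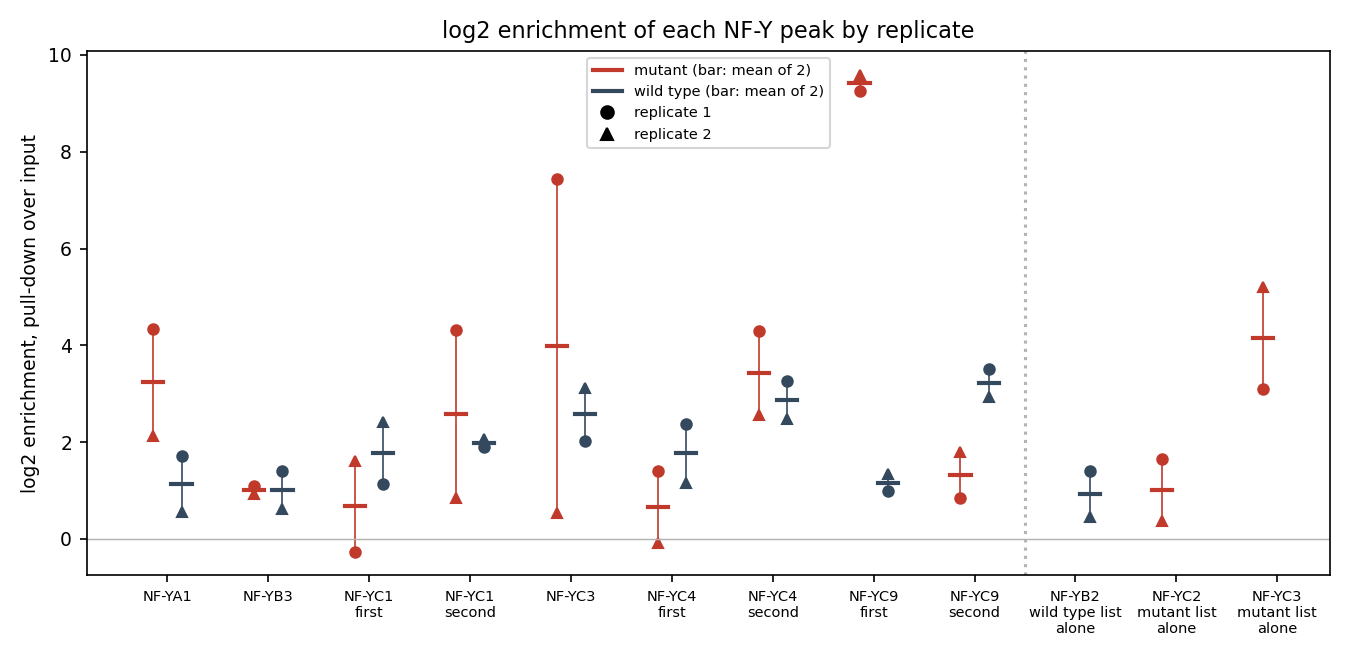
log2 enrichment of pull-down over input (y axis) of each NF-Y peak (x axis); the mutant is red and left of wild type in dark blue, circles and triangles are replicates 1 and 2, short bars are means of 2, and peaks right of the dotted line were listed in 1 genotype alone. The first NF-YC9 peak of the mutant sits above 9 in both replicates, while the NF-YC3 values of the mutant run between 0.54 and 7.44.

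At these peaks the mutant replicates had the wider range of gaps, a difference without a test. The gap between the 2 replicates ran between 0.18 and 6.90 in the mutant, with a median of 1.74, and between 0.17 and 1.28 in wild type, with a median of 0.87. Over all peaks the medians were 1.79 in the mutant and 1.46 in wild type. The median of the mean enrichment was 2.58 over the 11 mutant peaks and 1.78 over the 10 wild-type peaks, against 2.45 over all peaks in each list. Both replicates reached 1 at 4 of the 11 mutant peaks and 6 of the 10 wild-type peaks, against 64.6% of all mutant peaks and 68.2% of all wild-type peaks.

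Within NF-YC1, NF-YC4 and NF-YC9 the first and the second peak could be set against each other in the same libraries. In NF-YC4 the first peak was below the second in every library, with a first minus second peak difference of -2.91 and -2.64 in the mutant and of -0.89 and -1.31 in wild type. In NF-YC1 the first peak was below the second in replicate 1 of both genotypes (-4.58 in the mutant, -0.76 in wild type) and above it in replicate 2 (0.77 in the mutant, 0.35 in wild type). In NF-YC9 the order turned between genotypes over replicates 1 and 2, with a difference of 8.41 and 7.81 in the mutant and of -2.53 and -1.60 in wild type.

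**Figure D3:**
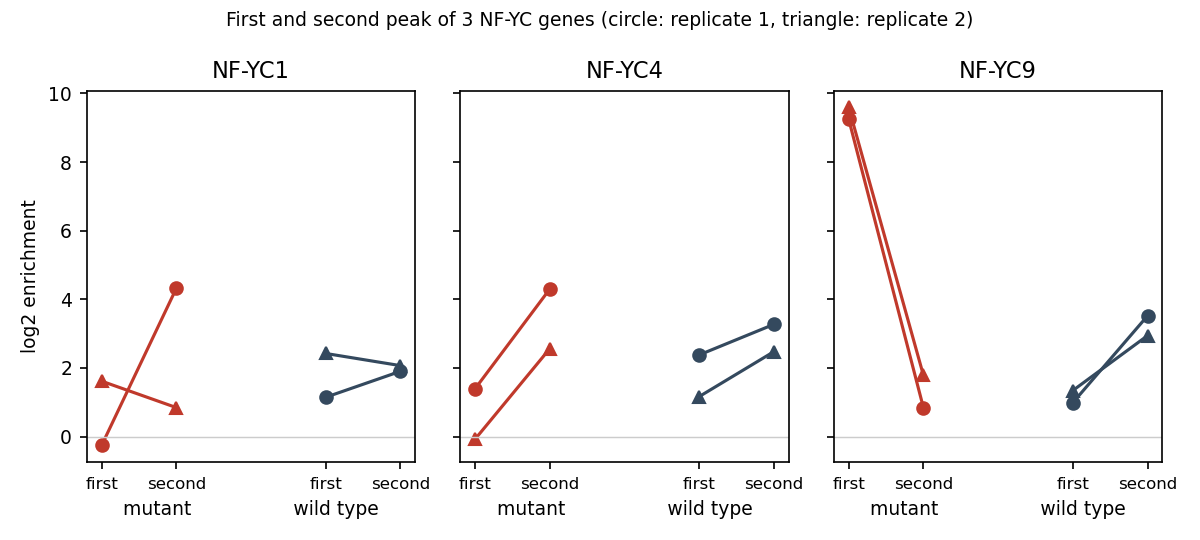
log2 enrichment (y axis) of the first and the second peak of NF-YC1, NF-YC4 and NF-YC9 in each library, with lines joining the peaks of 1 library and the mutant left of wild type. The lines of NF-YC9 fall in the mutant and climb in wild type, those of NF-YC4 climb in all 4 libraries, and those of NF-YC1 climb in replicate 1 and fall in replicate 2. Replicates 1 and 2 alone are drawn.

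The same measure was taken in all 435 genes with a shared pair inside the first 250 bases and another beyond, using the first such pair and the last. The first pair had the higher mean in 37.5% of them in the mutant and in 27.6% in wild type, and it was the higher one in the mutant but not in wild type in 93 genes (21.4%). The change in first minus last peak, mutant minus wild type, was 10.18 at NF-YC9, the highest of the 435 genes, whose median was 0.26. It was -1.67 at NF-YC4 and -1.70 at NF-YC1. NF-YC9 entered with its values known, so its place in this order is a description.

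Over the 9 pairs, 4 had a mean at least 1.5-fold higher in the mutant, where 32.4% of all pairs did, and 3 had one at least 1.5-fold lower, where 32.1% did. The 4 higher ones were the first NF-YC9 peak, NF-YA1, NF-YC3 and the second NF-YC1 peak, and the 3 lower ones the second NF-YC9 peak and the first peaks of NF-YC4 and NF-YC1. NF-YB3 and the second NF-YC4 peak lay within 1.5-fold, as 35.5% of all pairs did. The genotypes did not overlap at 3 pairs: the mutant was the higher one at 2 pairs (13.7% of all pairs) and the lower one at 1 (15.0%). The median difference, mutant minus wild type, was 0.56 over the 9 pairs and -0.02 over all pairs. In a limma fit over all 13875 pairs, 0 pairs (0.00%) passed at an adjusted p under 0.05, those of the NF-Y genes included, and 491 (3.54%) had an unadjusted p under 0.05. That share is smaller than the threshold of 0.05 alone would give if no pair differed. The smallest adjusted p of the limma fit was 0.9996.

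**Figure D4:**
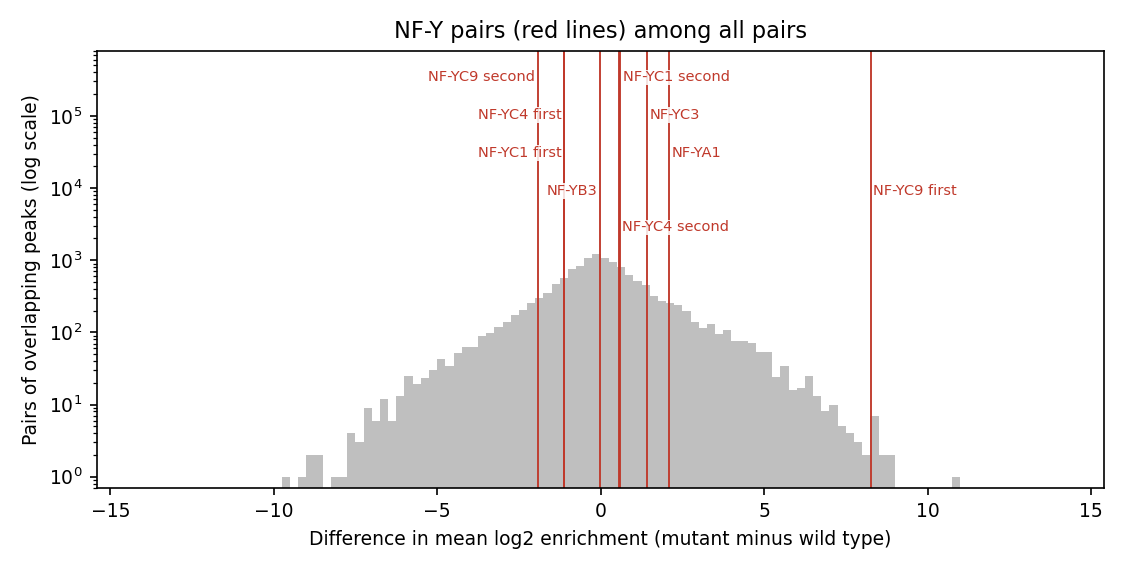
Number of pairs of overlapping peaks (y axis, log scale) by difference in mean log2 enrichment, mutant minus wild type (x axis), over all 13875 pairs in grey, with a red line at each of the 9 NF-Y pairs. The first NF-YC9 peak lies at 8.26 in the upper tail, and the other 8 pairs lie between -1.92 and 2.10.

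The other 26 NF-Y genes of Arabidopsis were examined in the same way, and 13 of them had a peak: 6 in both lists, 3 in the mutant alone and 4 in wild type alone. Over all 36 NF-Y genes, 15 were in neither list. Of the 21 listed ones, 12 were in both lists, 4 in the mutant alone and 5 in wild type alone. Of the 14304 genes listed anywhere, 77.4% were in both lists, 9.54% in the mutant alone and 13.0% in wild type alone. By kind of subunit, 5 of 10 NF-YA, 8 of 13 NF-YB and 8 of 13 NF-YC genes were listed. The share of all annotated genes with a peak was not taken. Counts of NF-Y genes with and without a peak therefore have no background beside them. Of the 8 listed NF-YC genes, 6 were in both lists and 2 in the mutant alone. LEC1 (NF-YB9) and L1L (NF-YB6), known as embryo regulators, had no peak, nor did NF-YC5, NF-YC6, NF-YC7 and NF-YC8. Genes listed in the mutant alone were NF-YA9 (0.81 and 2.11), NF-YB8 (7.68 and 2.09) and NF-YC10 (2.50 and 1.29). Wild type alone listed NF-YA3 (4.46 and 2.31), NF-YA4 (1.29 and 1.95), NF-YB11 (4.86 and 4.01) and NF-YB12 (-0.96 and 2.39).

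The other NF-Y genes listed in both had 7 pairs, of which 3 were at least 1.5-fold higher in the mutant, 3 lower and 1 between, where 32.4%, 32.1% and 35.5% of all pairs were. NF-YA7 had 4.20 and 6.92 in the mutant against 7.04 and 10.13 in wild type, and it was the only one of the 7 whose genotypes did not overlap, with the mutant lower as at 15.0% of all pairs. NF-YB1 had 1.64 and 2.21 in the mutant, and 1.45 and 8.44 in wild type. NF-YB10 had 4.16 and 8.85 in the mutant and 3.47 and 4.44 in wild type. NF-YB13 had 1.76 and 9.06 in the mutant, and 1.49 and 4.41 in wild type, and NF-YC12 had 3.20 and 10.40 in the mutant, and 5.14 and 6.84 in wild type. NF-YC11 had a pair with means of 0.92 ± 2.73 in the mutant and 0.38 ± 1.47 in wild type, and a further one with 2.98 ± 0.87 in the mutant and 4.63 ± 3.07 in wild type. On leaving out 1 library the sign of the difference turned at 5 of the 7 pairs. No share of sign turns over all pairs was taken, so this count has no background beside it. NF-YB1 turned without wild-type replicate 2 (0.47), and NF-YB13 without mutant replicate 2 (-1.19). NF-YC12 turned without mutant replicate 2 (-2.79) or wild-type replicate 1 (-0.04). The first NF-YC11 pair turned without mutant replicate 1 (-1.39) or wild-type replicate 1 (-0.50), and the second without wild-type replicate 2 (0.52).

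Of 11 genes known as partners or targets of NF-Y in flowering, gibberellin and abscisic acid responses, 6 were in both lists, FT in the mutant alone, HY5 in wild type alone and 3 in neither (CO, BZIP67 and RGL2). Of their 9 pairs 3 were at least 1.5-fold higher in the mutant and 5 lower, against 32.4% and 32.1% of all pairs. The genotypes did not overlap at 4 of the 9, with the mutant higher at 2 (13.7% of all pairs) and lower at 2 (15.0%). At 5 others the sign of the difference turned on leaving out 1 library, a count again without a share over all pairs. GAI, a DELLA repressor of gibberellin responses, had a pair near its start with 6.87 and 10.04 in the mutant against 3.06 and 4.44 in wild type, without overlap. Further GAI peaks at bases 821 to 949 (2.47 and 0.10) and 1911 to 2010 (2.75 and -3.61) were listed in the mutant alone. RGA, a DELLA gene known to bind NF-YC proteins, had 3.56 and 6.67 in the mutant at its first peak, and 3.17 and 3.50 in wild type, also without overlap. The later RGA pair went the other way in the mean, by -1.12, and its genotypes overlapped. REF6, a histone demethylase gene known to act with NF-Y at SOC1, had a pair with 2.29 and 2.48 in the mutant against 4.69 and 3.92 in wild type, without overlap and with the mutant lower. Other REF6 peaks had no partner. In the mutant they had 3.17 and 2.98 at bases 591 to 690, and 2.84 and 2.42 at bases 3106 to 3270. In wild type they had 4.02 and 0.07 at bases 3331 to 3479, and 8.28 and 2.30 at bases 3661 to 3760. ABF4, a bZIP factor of the abscisic acid response, had a first pair with 1.21 and 0.56 in the mutant against 1.67 and 2.68 in wild type, also separated with the mutant lower. Its second pair had 1.502 and 10.29 in the mutant, where replicate 2 alone made the mean the higher one, against 1.77 and 2.54 in wild type. FT had 5.43 and 0.00 in the mutant, and HY5 had -0.33 and 3.55 in wild type, so each rested on 1 replicate.

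The genes whose pairs were most like the first NF-YC9 peak were found by the distance between the 4 log2 values, over 7155 pairs in other genes with a symbol. They were GLCAK (AT3G01640), at a distance of 1.43, INDH (AT4G19540), at 1.84, and ULP1D (AT1G60220), at 1.96. GLCAK, a glucuronokinase gene, had 8.50 and 9.44 in the mutant and 2.20 and 1.42 in wild type. INDH had 9.68 and 8.49 in the mutant, and its wild-type values lay further apart, at -0.20 and 2.11. ULP1D, a SUMO protease gene, had 9.03 and 7.94 in the mutant and 1.75 and 2.05 in wild type. Position did not enter the distance: the mutant peaks started at base 1132 in GLCAK, 1041 in INDH and 135 in ULP1D. Likeness over 4 values is a description of these libraries.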

How the data were processed

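Poly(A) RNA was fragmented, and m6A-bearing fragments were recovered with an antibody, per the labels' protocols. The authors deposited 1 peak list per genotype with log2 enrichment values per replicate, per the file headers. TopHat2 2.0.14 and the build TAIR10 are named in the submitters' processing notes; the sources used here name no peak caller, threshold, formula or scaling. The 2 columns of replicate 3 were not used. No counts were used, so depth is unknown and counting intervals were left out. The labels call the replicates biological and say nothing more of their origin, so p-values measure the spread between these libraries.

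Peaks overlapping by at least 1 base in the same gene were partners, and those that were each other's largest overlap formed pairs. Pairs were compared with limma 3.58.1 in R 4.3.3 on the deposited log2 values (no replicate block, Benjamini-Hochberg over all pairs), after tests on simulated data. Ratios of 1.5 between means were counted. The rule named every member peak, other NF-Y genes with a peak, up to 6 partners or targets by size after those in 1 list, and the 3 nearest pairs with a symbol. The members and lists were chosen with earlier results of these data known. Symbols came from a TAIR10.1 table, which matched all 47 list genes; no sequences were used. Alternatives were other overlaps, folds, centring, enrichment limits, left-out libraries, gene means and a replicate block. Tables were handled in pandas 2.3.3 and numpy 2.4.6 under Python 3.11.15, with correlations from scipy 1.17.1 and plots from matplotlib 3.10.9.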

Additional observations from a re-analysis of the deposited data

How the results depend on the processing

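The fit over all pairs called 0 pairs under every alternative that kept all libraries (replicate block, centring, overlap of at least 50% of the shorter peak, all 4 values at least 1). Pairs at an unadjusted p under 0.05 ran between 436 of 8026 (all 4 values at least 1) and 567 of 13875 (replicate block). Fits with a library left out have 1 library in a genotype, so their calls are not given. Replicate numbers did not pair the libraries beyond the number itself (correlation of same-numbered deviations 0.0068 over all pairs), and the replicate block gave 0 calls, with 567 at an unadjusted p under 0.05 against 491 without it. Where both replicates had to reach 1, 2 of 10 NF-Y peaks had a partner, against 18 of 21 without that limit, while 61.9% of all mutant and 58.9% of all wild-type peaks at the limit had one. Counting genes under the same limit was added after the data were seen, and gave 3 NF-Y members in both lists, against 6, and 6 other NF-Y genes, against 6. No share over all genes was taken under that limit, so neither count has a background beside it. With all 4 values at least 1, only 1 NF-Y pair was left, so the higher, lower and separated pairs all became 0. Leaving out 1 library at a time gave 2 to 5 higher pairs (2 without mutant replicate 1), 2 to 4 lower pairs and 5 to 7 separated pairs, fewer values being easier to separate. The shares over all pairs were not taken with a library left out, so these counts have no background beside them. Of the 9 differences, 4 changed sign on leaving out some library (NF-YB3, NF-YC3 and the second peaks of NF-YC1 and NF-YC4), also without a share over all pairs. Centring turned NF-YB3, at -0.01, to 0.07. The first NF-YC9 difference ran between 8.08 and 8.44 over replicates 1 and 2 alone; the unused replicate 3 column of the mutant list does not hold so high a value there. A start window of 500 bases held 5 mutant NF-Y peaks, against 3 within 250. The 2 libraries per genotype and the unknown depth limit what these lists can show.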
